A study of Mus musculus with 6 samples.

Results

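Aminoacyl-tRNA synthetases are the enzymes that load each amino acid onto its tRNA before the ribosome can use it. The genes were chosen by name, as 36 symbols. All 36 were found among the 13003 genes listed for mouse heart and all 36 entered the test of 12955 genes. Of these, 20 encode cytosolic enzymes and 16 encode mitochondrial enzymes. *Gars* and *Kars* are counted as cytosolic here, although each is a single gene that serves both compartments.

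Cells keep 2 sets of these enzymes because mitochondria translate their own small genome with their own tRNAs. A cytosolic and a mitochondrial enzyme for the same amino acid are in most cases encoded by separate nuclear genes. Several cytosolic enzymes assemble on scaffold proteins into the multi-synthetase complex. Some of the cytosolic enzymes also belong to the genes that the transcription factor ATF4 is known to act on when amino acids run short or the integrated stress response is active. Mutations of mitochondrial synthetases are known causes of human disease in tissues with high energy demand, with *AARS2* a known gene of infantile cardiomyopathy.

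The libraries came from ventricular myocardium of 3 WT mice (replicates 1, 3 and 4) and 3 homozygous *Dst-b* mutant mice (replicates 1, 2 and 3), 1 mouse per library, on a C57BL/6J background at 14 to 19 months of age. The mutant allele carries a nonsense mutation in the part of dystonin that is particular to its muscle isoform, in every cell from conception, and the mutants were bred from heterozygous parents. Depth was 40693854 to 57580110 tags per library, and every synthetase gene had at least 109 tags in every library. Values are given as CPM, tags scaled to a common library size with TMM factors between libraries, and values of single hearts always follow the order just given. Each fold change is on the log2 scale, mutant against WT, with its standard error (SE). A gene was called at p under 0.01 with a Benjamini-Hochberg adjusted p under 0.1 over all genes tested, by edgeR's quasi-likelihood test, and p-values below come from that test unless another is named.

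The 7 ventricular cardiomyocyte markers fixed for the check were all present, at a summed 93880 to 105300 CPM, with *Actc1* called higher and *Myl3* lower (edgeR adjusted p = 0.0652 and 0.0836). Of 4 skeletal muscle markers tested, 3 had a negative log2 fold change and 1, *Tnnt3*, a positive one (0.39). Only *Ckm*, the muscle creatine kinase, was called, and it was lower (edgeR adjusted p = 0.0404). Total *Dst*, which sums all isoforms, was 423 to 473 CPM in WT hearts against 414 to 457 CPM in mutants and does not check the genotype labels. Mutant replicate 2 had 0 CPM for all 4 Y-linked genes examined, against 19.1 to 138 CPM in the other 5 libraries, so 1 mouse differed from the others in sex. WT replicate 3 and mutant replicate 3 stood apart in the atrial markers *Myl4*, *Myl7* and *Sln*, with *Myl4* at 241 and 136 CPM against 32.9 to 62.8 CPM elsewhere. Both are called the libraries higher in atrial markers below, for these genes only. The atrial marker *Nppa* was an exception, at 119, 671 and 144 CPM in WT hearts and 877, 926 and 639 CPM in mutants, with mutant replicate 3 the lowest mutant. All 5 endothelial markers had a negative log2 fold change and 1, *Tie1*, was called lower (summed level 873 to 999 CPM in WT hearts against 807 to 903 CPM in mutants). *Rgs5* and *Pdgfrb*, 2 of the 5 mural cell markers, were called lower and *Col1a1*, 1 of the 6 fibroblast markers, was called higher. The part of these markers in the results below was not tested, and in whole tissue fewer cells of a type cannot be told apart from less RNA per cell.

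Of the 20 cytosolic genes, *Lars* and *Iars* rose and 0 fell. Of the 16 mitochondrial genes, *Sars2* fell and 0 rose. The background over all 12955 genes was 2.8% called higher, 1.84% called lower and 4.64% called in all, and 3 calls among 36 genes are too few to set the list apart from the table. Without WT replicate 3 and mutant replicate 3, the libraries higher in atrial markers, the log2 fold changes were 0.28 for *Lars*, 0.22 for *Iars* and -0.53 for *Sars2*, and none was called (edgeR adjusted p = 0.175 to 0.344). At an unadjusted p under 0.05, edgeR's quasi-likelihood test gave 7 cytosolic genes higher and 0 lower, and 0 mitochondrial genes higher and 1 lower, 8 of the 36 against 16.5% of all genes. DESeq2, which called more genes in all (7.94%, with 4.48% higher and 3.46% lower), gave *Lars*, *Iars* and *Eprs* higher and *Sars2* lower. Limma-trend (4.71%, with 2.92% higher and 1.79% lower) made the same 3 calls as edgeR.

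A log2 fold change above 0 was found in 18 of the 20 cytosolic genes and in 6 of the 16 mitochondrial genes, against 6477 of the 12955 genes tested. The median log2 fold change was 0.14 over the cytosolic genes (range -0.01 to 0.29) and -0.06 over the mitochondrial genes (range -0.51 to 0.23), while the median over all genes tested was 0 to 2 decimals. Without mutant replicate 2 the cytosolic median was 0.085, and the mitochondrial median was near 0 in some fits (-0.0059 without mutant replicate 1) and turned to 0.019 with a replicate block. In 9 cytosolic genes all 3 mutant hearts exceeded all 3 WT hearts, which is 45.0% of the 20, against a background of 11.4% of all genes. *Qars*, among them, overlapped when the authors' RPKM, which divides by exon length, replaced the TMM-scaled CPM. No cytosolic gene lay lower in all mutant than in all WT hearts, against a background of 10.5%. Of the mitochondrial genes, 0 were higher and 1, *Sars2*, was lower without overlap. With 1 library left out, 10 to 12 cytosolic genes did not overlap on the higher side (background 14.6% to 17.5%), while among mitochondrial genes 0 to 5 parted on the higher and 1 to 6 on the lower side (background on the lower side 13.8% to 16.4%). Without both libraries higher in atrial markers, 11 cytosolic genes parted on the higher side (background 23.1%) and 8 of the 16 mitochondrial genes on the lower side (background 22.6%). These shares describe the list and carry no test.

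**Figure D1:**
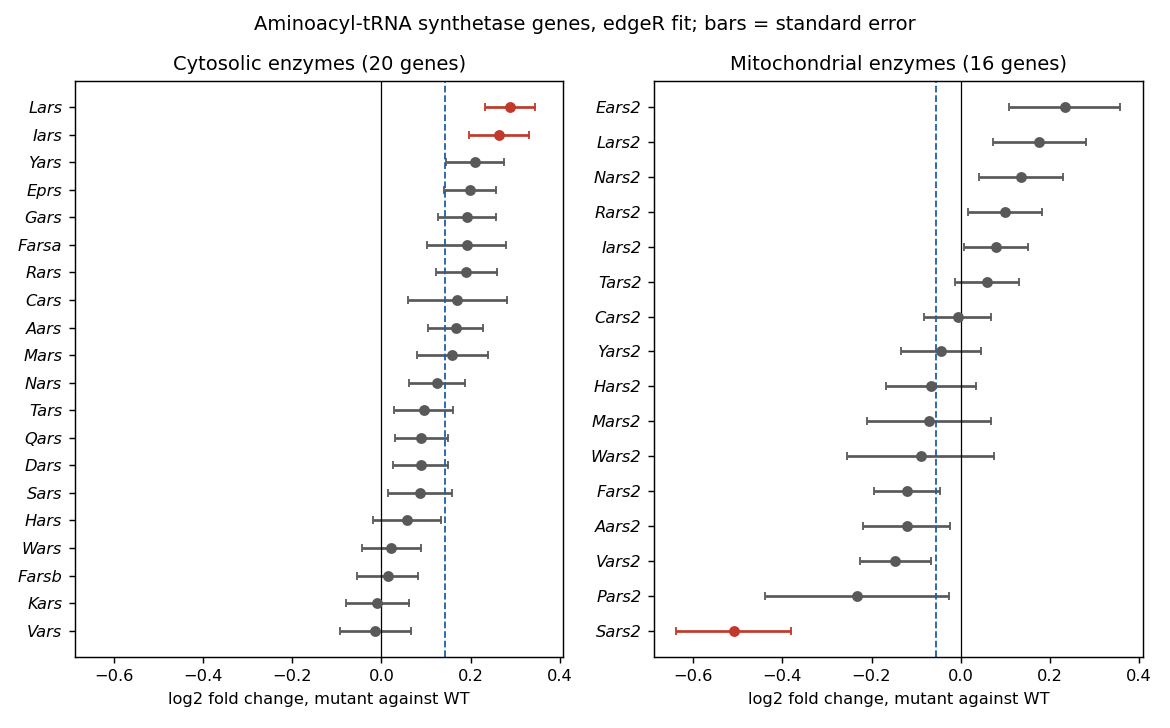
Log2 fold change of each synthetase gene, mutant against WT (x axis), with cytosolic genes on the left and mitochondrial genes on the right. Points are the edgeR estimates, bars are the standard error, red marks the 3 genes called, and the dashed line is the median of the panel, 0.14 for the cytosolic and -0.06 for the mitochondrial genes (0.019 with a replicate block).

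*Lars*, which charges leucine tRNA and is also known as a leucine sensor upstream of mTORC1, was the synthetase gene with the smallest p. It stood at 119, 118 and 120 CPM in the WT hearts and at 149, 142 and 146 CPM in the mutants. The WT hearts lay close together and every mutant heart lay above them. The mean rose from 119 ± 1.15 to 145 ± 3.44 CPM (SD, n = 3), a 1.22-fold rise (log2 fold change 0.29, SE 0.06, edgeR adjusted p = 0.0312). The call was lost only without mutant replicate 1 among the fits that left out 1 library (edgeR adjusted p = 0.164).

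*Iars* encodes the isoleucine enzyme, which sits with the leucine enzyme in the multi-synthetase complex. It measured 77.5, 72.4 and 72.4 CPM in the WT hearts and 84.3, 90.3 and 92.3 CPM in the mutants. The groups did not overlap, and WT replicate 1 was the WT heart nearest to the mutants. The mean rose from 74.1 ± 2.94 to 89.0 ± 4.19 CPM (SD, n = 3), a 1.20-fold rise (log2 fold change 0.26, SE 0.07, edgeR adjusted p = 0.0790). The direction held in every fit, but the call was lost whichever of the 6 libraries was left out (edgeR adjusted p = 0.116 to 0.197). *Iars* spans chr13:49682130-49734267 of GRCm38 on the plus strand. The annotated pseudogene *Gm4849* matches its transcript over 1656 bases at 96.0% identity, so some of its tags could come from or be lost to that copy.

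Of the cytosolic genes that were not called, the 5 with the smallest p were *Eprs*, *Yars*, *Gars*, *Rars* and *Aars*, and in each of them the groups did not overlap. *Eprs*, which joins the glutamate and proline enzymes in a single protein, was 180, 165 and 174 CPM in the WT hearts and 199, 196 and 201 CPM in the mutants. It missed the threshold (log2 fold change 0.20, SE 0.06, edgeR adjusted p = 0.119), and DESeq2 called it higher (adjusted p = 0.0479). *Yars*, the tyrosine enzyme, varied little within a genotype, at 34.9, 35.0 and 35.4 CPM in WT hearts against 41.6, 40.2 and 40.1 CPM in mutants (edgeR adjusted p = 0.140).

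*Gars*, the glycine enzyme of both compartments, was 85.9, 84.5 and 88.1 CPM in WT hearts against 92.5, 101 and 102 CPM in mutants. *Rars*, the arginine enzyme, was 59.5, 64.8 and 63.4 CPM in WT hearts against 74.8, 70.1 and 69.4 CPM in mutants. *Aars*, the alanine enzyme, was 90.1, 85.6 and 88.2 CPM in WT hearts against 95.9, 102 and 98.7 CPM in mutants. All 3 had log2 fold changes of 0.17 to 0.19 and edgeR adjusted p of 0.179 to 0.213, so none was called. These differences were of the size of a 1.12-fold to 1.14-fold change. For *Aars*, 1326 exon bases are shared on the same strand with *Exosc6* in GENCODE M21, so the tags of both cannot be fully told apart.

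*Nars* and *Qars*, the asparagine and glutamine enzymes, were the other 2 cytosolic genes without overlap, at log2 fold changes of 0.12 and 0.09. *Qars* parted narrowly, with WT replicate 4 at 105.3 CPM and mutant replicate 3 at 106.4 CPM. In the authors' RPKM these 2 libraries stood at 34.11 and 33.99, so its groups overlapped there. The remaining cytosolic genes overlapped between genotypes. *Farsa*, *Cars* and *Mars*, for phenylalanine, cysteine and methionine, had log2 fold changes of 0.16 to 0.19, and *Tars*, *Dars*, *Sars* and *Hars*, for threonine, aspartate, serine and histidine, 0.06 to 0.09. *Wars*, *Farsb*, *Kars* and *Vars*, for tryptophan, phenylalanine, lysine and valine, lay between -0.01 and 0.02. *Farsa* and *Farsb* encode the subunits of 1 enzyme, and their log2 fold changes were 0.19 (SE 0.09) and 0.01 (SE 0.07). *Kars*, the other enzyme of both compartments, was the most abundant per length and stood at 160 ± 10.6 CPM in WT hearts against 159 ± 8.17 CPM in mutants (SD, n = 3).

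**Figure D2:**
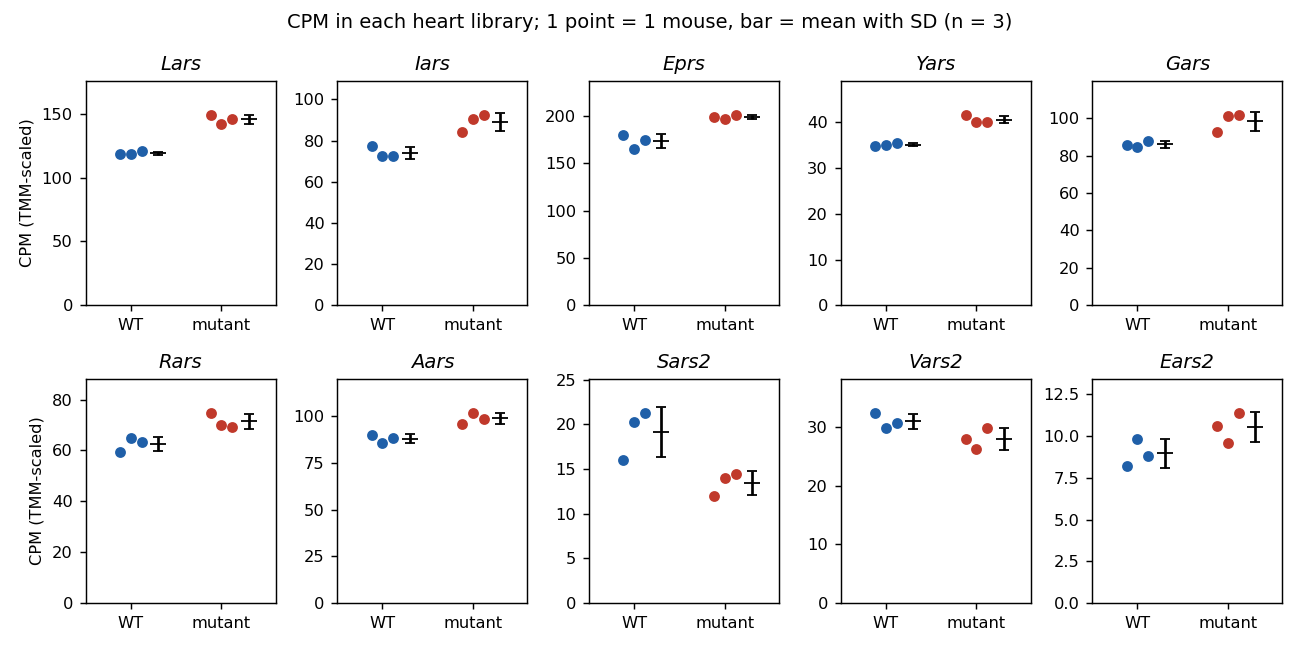
CPM (y axis, from 0) of 10 synthetase genes in WT (blue) and mutant (red) hearts, with 1 point per mouse and a bar for the mean with its SD (n = 3). In the 7 cytosolic genes shown all mutant points lie above all WT points, in *Sars2* they lie below, and in *Vars2* and *Ears2* the groups overlap.

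By assembly, the 8 cytosolic enzymes of the multi-synthetase complex (*Eprs*, *Iars*, *Lars*, *Mars*, *Qars*, *Rars*, *Kars* and *Dars*) held both called genes. Their median log2 fold change was 0.17, with 5 of the 8 without overlap on the higher side (62.5%, against 11.4% of all genes). *Qars*, among those 5, overlapped in RPKM. The other 12 cytosolic genes had a median of 0.11, 0 calls by edgeR's quasi-likelihood test and 4 genes without overlap on the higher side (33.3%). Of those 12, 3 had an unadjusted p under 0.05 by the same test, and DESeq2 and limma-trend called 0 of them. The genes of the 3 scaffold proteins of the complex were not called: *Aimp1*, *Aimp2* and *Eef1e1* had log2 fold changes of 0.02, 0.09 and -0.05. *Aimp1* was 104 ± 5.31 CPM in WT hearts against 105 ± 1.28 CPM in mutants (SD, n = 3). By catalytic class, which follows the fold of the active site, the 9 cytosolic class I genes had a median log2 fold change of 0.17 and the 10 class II genes 0.09, with *Eprs* holding an enzyme of each class and left out of both. The differences between these groups of genes were not tested.

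*Sars2*, the mitochondrial serine enzyme, was the synthetase gene with the largest change. It stood at 15.98, 20.3 and 21.3 CPM in the WT hearts and at 11.9, 13.95 and 14.5 CPM in the mutants. The mutant hearts lay below all WT hearts, with WT replicate 1 nearest to them. The mean fell from 19.2 ± 2.82 to 13.5 ± 1.34 CPM (SD, n = 3), to 0.703 of its WT level (log2 fold change -0.51, SE 0.13, edgeR adjusted p = 0.0774). When 1 library was left out, the call held only without WT replicate 1 (edgeR adjusted p = 0.0519) and was lost in the other 5 fits, with the highest adjusted p of 0.292 without mutant replicate 1. The cytosolic serine enzyme gene *Sars* was 84.7 to 94.4 CPM in WT hearts against 88.6 to 97.7 CPM in mutants.

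*Sars2* spans chr7:28741957-28753879 of GRCm38 on the plus strand, head to head with *Mrps12*, which encodes a protein of the small mitochondrial ribosomal subunit and is read from the minus strand. Between the starts of the genes in the RefSeq promoters lie 146 bases. The RefSeq span of *Sars2* begins slightly upstream of its promoter start, inside these bases. This stretch, chr7:28741822-28741967 of GRCm38.p6 read on the plus strand, is shown because both genes are read outward from it:
Sars2-Mrps12: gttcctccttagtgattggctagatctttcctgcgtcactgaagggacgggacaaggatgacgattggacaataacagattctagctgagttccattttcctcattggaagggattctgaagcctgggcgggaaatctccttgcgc
*Mrps12* was 32.4, 32.8 and 33.4 CPM in WT hearts against 32.2, 29.4 and 29.8 CPM in mutants. The mutant hearts were lower without overlap, but the log2 fold change was -0.11 (SE 0.07), and the gene was not called (edgeR adjusted p = 0.50).

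None of the other 15 mitochondrial genes was called by edgeR's quasi-likelihood test, DESeq2 or limma-trend, and 0 of them had an unadjusted p under 0.05 by these tests. The 5 with the smallest p went in both directions. *Ears2*, the glutamate enzyme, was 8.19, 9.86 and 8.84 CPM in WT hearts against 10.6, 9.58 and 11.4 CPM in mutants (log2 fold change 0.23, SE 0.13). *Vars2*, the valine enzyme, was 32.4, 29.8 and 30.8 CPM in WT hearts against 27.9, 26.2 and 29.9 CPM in mutants (log2 fold change -0.15, SE 0.08). In both genes a single pair of hearts kept the groups from parting.

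*Lars2*, the leucine enzyme and the mitochondrial gene with the highest CPM, was 237, 246 and 187 CPM in WT hearts against 260, 228 and 269 CPM in mutants. Its WT values spread more than those of any other mitochondrial gene in CPM, with WT replicate 4 the lowest library. *Fars2*, the phenylalanine enzyme, was 69.6, 67.0 and 71.3 CPM in WT hearts against 65.1, 58.4 and 67.8 CPM in mutants, and *Nars2*, the asparagine enzyme, was 21.7, 20.6 and 19.8 CPM in WT hearts against 23.7, 20.4 and 24.2 CPM in mutants. The groups overlapped in all 3 genes. *Rars2*, *Iars2* and *Tars2* had log2 fold changes of 0.06 to 0.10, *Cars2*, *Yars2*, *Hars2*, *Mars2* and *Wars2* of -0.09 to -0.01, and *Aars2* and *Pars2* of -0.12 and -0.23. *Pars2*, the proline enzyme, was the least abundant of the 36 genes and had the largest standard error, 0.21. For *Iars2*, 2034 exon bases are shared on the opposite strand with *Rab3gap2*, and whether the counting used strand is not given in the sources used here.

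**Figure D3:**
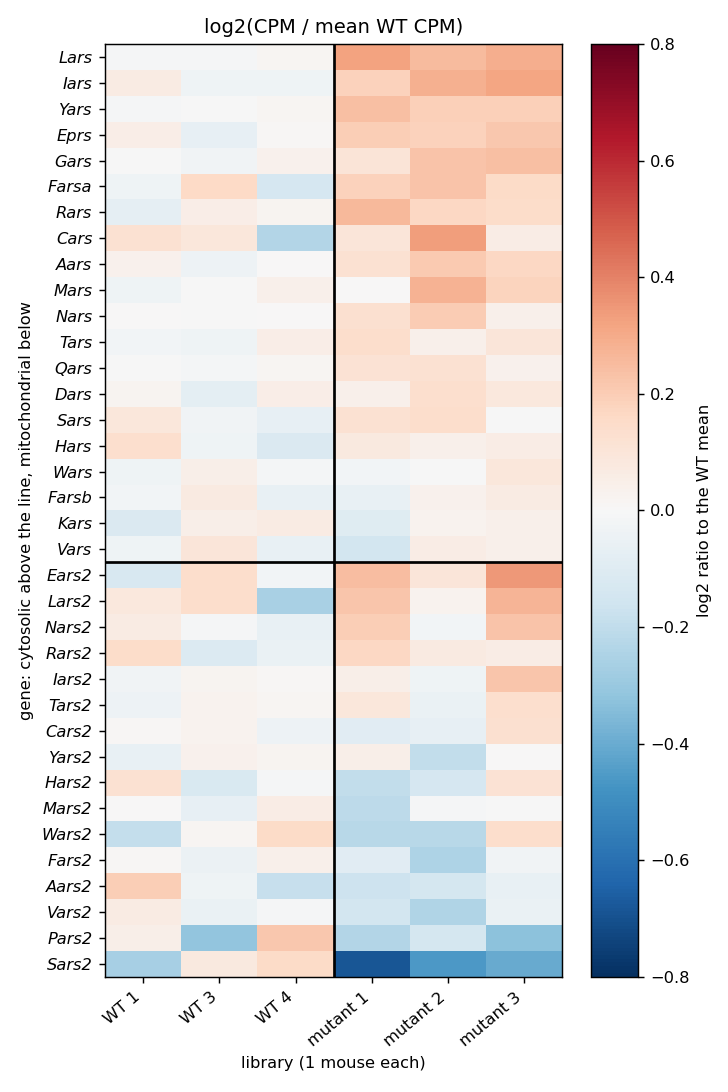
CPM of each synthetase gene (rows, cytosolic above the line, mitochondrial below, each ordered by log2 fold change) in each of the 6 libraries (columns), as log2 of the ratio to the WT mean. Red is above and blue below the WT mean. The upper block is mostly red in all 3 mutant libraries, and the lower block is mixed, with *Sars2* the deepest blue in all 3.

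Levels between genes are compared here as the authors' RPKM, which divides by exon length. Among WT hearts the cytosolic genes ran from 6.21 RPKM for *Farsa* to 79.4 RPKM for *Kars*, with a median of 23.8 RPKM. The mitochondrial genes ran from 1.08 RPKM for *Pars2* to 32.4 RPKM for *Fars2*, with a median of 10.1 RPKM. Below *Kars* came *Dars* (59.7 ± 2.69 RPKM) and *Nars* (49.4 ± 0.0877 RPKM), and these 3 did not overlap in SD (n = 3). The next step down was large, to *Gars* at 35.8 ± 0.692 RPKM. From there *Farsb*, *Qars*, *Fars2*, *Lars2*, *Cars2* and *Lars* followed between 33.8 and 31.1 RPKM, mostly within the SD of their neighbours. At the lower end *Mars2* (2.16 RPKM), *Wars2* (1.41 RPKM) and *Pars2* stood well below the other 33 genes, of which the lowest was *Nars2* at 5.51 RPKM.

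**Figure D4:**
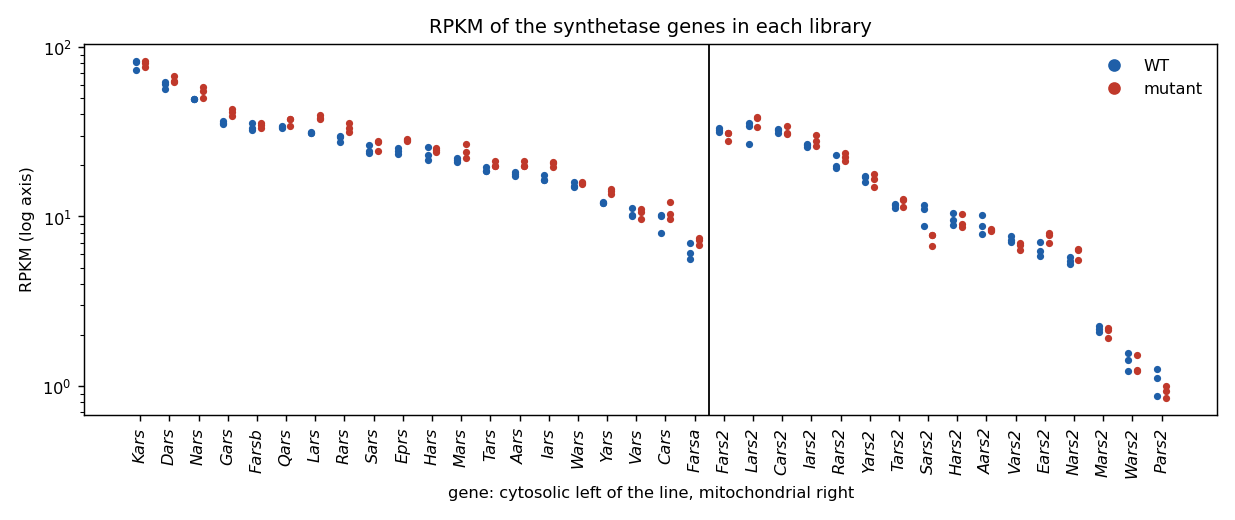
RPKM (y axis, log scale) of each synthetase gene in each library, 1 point per mouse, WT in blue and mutant in red. Cytosolic genes, left of the line, run from 6.21 to 79.4 RPKM in WT means, and mitochondrial genes, right of it, from 1.08 to 32.4 RPKM.

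Whether the 2 enzymes for an amino acid moved apart was read from 16 pairs of a cytosolic gene and its mitochondrial partner, with *Farsa* and *Farsb* each set against *Fars2* and *Eprs* against *Ears2*. In each library the log2 ratio of cytosolic to mitochondrial CPM was taken. The mean ratio was higher in mutant hearts in 14 of the 16 pairs, with a median change of 0.13. In 5 pairs (*Sars*/*Sars2*, *Aars*/*Aars2*, *Yars*/*Yars2*, *Mars*/*Mars2* and *Iars*/*Iars2*) the mutant and WT hearts did not overlap, and in 0 pairs did they part the other way. *Iars*/*Iars2* parted only narrowly, with WT replicate 1 at -1.068 and mutant replicate 3 at -1.063 (SD 0.081 in WT and 0.119 in mutant hearts). No background share was taken for ratios of gene pairs, here or below. Over single genes the share without overlap was 11.4% higher and 10.5% lower. The pairs reuse the genes counted above, so the pair counts are not a separate result. Without mutant replicate 2, 5 pairs parted with the mutants higher and 1 with them lower. For *Sars*/*Sars2* the log2 ratio was 2.56, 2.10 and 1.99 in WT and 3.01, 2.81 and 2.61 in mutant hearts, with *Sars2* falling and *Sars* not called. For *Mars*/*Mars2* it was 3.30, 3.40 and 3.32 in WT and 3.56, 3.63 and 3.52 in mutant hearts, although neither gene was called alone. For *Lars*/*Lars2* the ratios overlapped, since the ratio of WT replicate 4 was the highest of all 6. Each of the 5 separated pairs reached p = 0.1 in the exact permutation test (two-sided), the smallest p that 3 mice against 3 allow, and p = 0.32 after Benjamini-Hochberg adjustment over the 16 pairs, so no pair could pass 0.05.

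**Figure D5:**
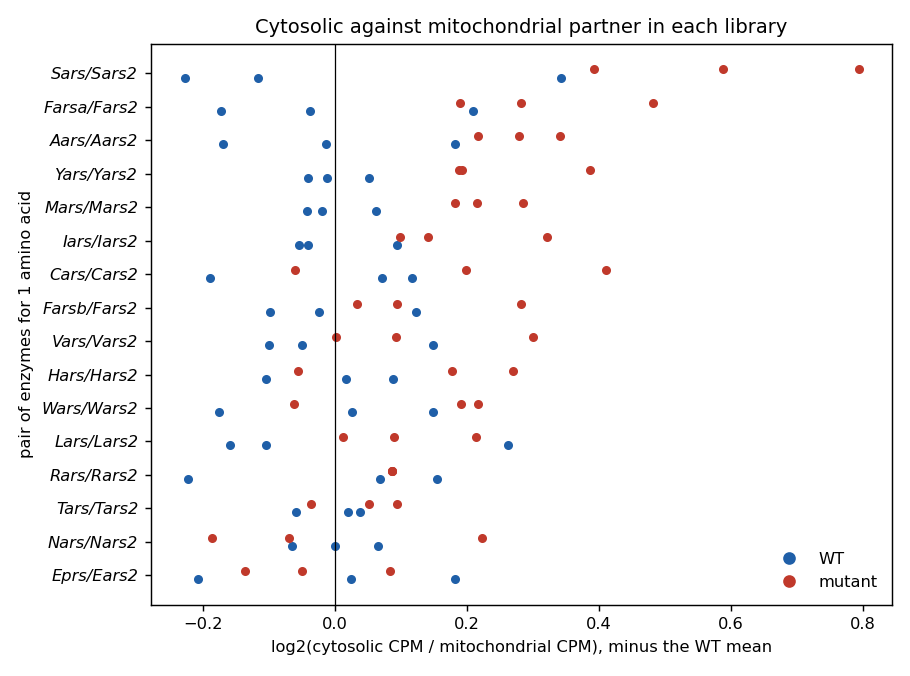
Log2 ratio of cytosolic to mitochondrial CPM for each of the 16 pairs (rows), minus the WT mean of the pair, with 1 point per mouse, WT in blue and mutant in red. In the 5 pairs *Sars*/*Sars2*, *Aars*/*Aars2*, *Yars*/*Yars2*, *Mars*/*Mars2* and *Iars*/*Iars2* the mutant points lie to the right of all WT points.

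Summed over the 20 cytosolic genes, the level was 1669, 1657 and 1665 CPM in the WT hearts and 1789, 1855 and 1819 CPM in the mutants. The cytosolic sums did not overlap. Over the 16 mitochondrial genes the sum was 826, 827 and 769 CPM in WT hearts against 834, 774 and 893 CPM in mutants, with overlap. *Lars2* and *Iars2* are the largest terms of the mitochondrial sum.

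Promoters were examined for the C/EBP-ATF response element, the DNA element through which ATF4 is known to act on genes of amino acid supply. The letters TGATGNAA were searched on both strands (TTNCATCA on the other strand) in the RefSeq promoters of GRCm38.p6, from 250 bases before to 50 bases after each gene start. They occurred in 5 of the 13 cytosolic synthetase genes with an entry, among them *Gars*, *Iars*, *Tars* and *Yars*, and in 0 of the 14 mitochondrial genes with an entry. The share over all promoters of the table was 3.97%, and over genes tested here with an entry it was 2.76%. The 4 stretches below, from these genes, show the 8 letters in capitals, 5′ to 3′ on the strand of the gene. They lie at chr6:55037960-55037989 (plus strand), chr13:49682126-49682155 (plus), chr15:11399655-11399684 (minus) and chr4:129189895-129189924 (plus) of GRCm38.p6, in this order:
Gars: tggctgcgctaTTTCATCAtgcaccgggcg
Iars: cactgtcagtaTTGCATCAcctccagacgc
Tars: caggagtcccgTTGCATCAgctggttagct
Yars: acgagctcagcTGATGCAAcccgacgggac
*Iars* and *Tars* hold TTGCATCA and *Yars* its other strand TGATGCAA, while *Gars* holds TTTCATCA. The matches shown begin at -30, 8, -15 and 4 bases from the gene start, in the order of the lines.

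The 5 cytosolic genes with these letters had log2 fold changes of 0.09 to 0.26 with a median of 0.19, and in 4 of them, all but *Tars*, the mutant hearts lay above all WT hearts (background 11.4%). The 8 cytosolic genes with an entry and without the letters had log2 fold changes of -0.01 to 0.20 with a median of 0.09. Of these, 2 were without overlap, *Eprs* and *Qars* (*Qars* in CPM but not in RPKM). The 7 cytosolic genes with no entry, *Lars* and *Rars* among them, ran from -0.01 to 0.29 with a median of 0.12, and 3 of them were without overlap. The ranges of these groups overlapped, and the difference was not tested. The same letters were found in 5 of the 19 ATF4 and amino acid response genes with an entry (26.3%: *Asns*, *Chac1*, *Nupr1*, *Pycr1* and *Trib3*) and in 1 of the 11 amino acid transporters with an entry, *Slc1a4* (9.09%). None of these 5 response genes was called, with log2 fold changes from -0.06 for *Trib3* to 0.94 for *Pycr1*. Within the promoter window searched, no match was found for *Gdf15*, *Mthfd2* and *Ddit3*, the called genes of that list, while *Slc1a4* was called higher. Sequence outside that window and genes without an entry were not searched. The search therefore cannot tell whether *Gdf15*, *Mthfd2* and *Ddit3* lack the element. A match is a description of the sequence and not evidence of binding.

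Genes that act beside the synthetases, from tRNA maturation and elongation to amino acid transport and the ATF4 response, were read from 9 lists of 89 companion genes. Of these 87 were tested, 4 were called higher and 1 was called lower, against 2.8% called higher and 1.84% called lower over all genes. Of 20 tested ATF4 and amino acid response genes, 3 rose, 0 fell and 17 were not called, with a median log2 fold change of 0.11. *Gdf15*, a secreted stress factor, was 1.53, 1.43 and 0.994 CPM in WT hearts against 3.41, 4.22 and 2.62 CPM in mutants. It rose 2.59-fold (log2 fold change 1.37, SE 0.27, edgeR adjusted p = 0.0293). *Mthfd2*, a mitochondrial enzyme of one-carbon metabolism, was 2.84, 3.87 and 2.94 CPM in WT hearts against 6.61, 9.53 and 4.61 CPM in mutants, a 2.16-fold rise. *Ddit3*, the transcription factor CHOP, was 13.6, 18.7 and 15.1 CPM in WT hearts against 22.6, 23.6 and 22.5 CPM in mutants, a 1.45-fold rise. The adjusted p was 0.0584 for *Mthfd2* and 0.0478 for *Ddit3* by the same edgeR test. When 1 library was left out, *Gdf15* was called in 5 of the 6 fits (lost without mutant replicate 1, edgeR adjusted p = 0.123). *Mthfd2* was called in 2, without WT replicate 3 and without mutant replicate 3, and *Ddit3* in 1, without WT replicate 3. In the other fits their edgeR adjusted p reached 0.186 and 0.181, each without mutant replicate 1.

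*Atf4* itself was 69.7 to 73.4 CPM in WT hearts against 67.9 to 72.1 CPM in mutants, with a log2 fold change of -0.03, and ATF4 is known to be controlled mainly at translation. *Asns*, the asparagine synthetase used as a reporter of the amino acid response, was 2.69, 4.14 and 2.23 CPM in WT hearts against 3.18, 7.65 and 4.34 CPM in mutants, with overlap and no call. *Chac1*, a glutathione-degrading enzyme, was 5.32 to 6.62 CPM in WT hearts against 6.83 to 10.7 CPM in mutants and was not called (edgeR adjusted p = 0.145). The 17 genes of the list without a call ran from -0.21 for *Phgdh*, which starts serine synthesis, to 0.94 for *Pycr1*, an enzyme of proline synthesis whose groups overlapped. The 68 exon bases that *Ddit3* shares with *Mars* on the opposite strand are 1.99% of the exon bases of *Mars*. Their share of the exon bases of *Ddit3* was not computed, and whether tags of *Mars* enter the *Ddit3* count was not tested.

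Among 15 tested amino acid transporters 1 rose, 1 fell and 13 were not called, with a median log2 fold change of 0.01. *Slc1a4*, a transporter of neutral amino acids such as serine and alanine, was 1.56, 2.05 and 1.30 CPM in WT hearts against 3.75, 3.38 and 2.58 CPM in mutants, a 1.99-fold rise (edgeR adjusted p = 0.0790). *Slc38a3*, a glutamine transporter, was 103, 91.1 and 96.4 CPM in WT hearts against 62.7, 84.7 and 75.2 CPM in mutants, a log2 fold change of -0.38 (edgeR adjusted p = 0.0927). *Slc7a5* and *Slc3a2*, whose proteins pair to transport leucine, parted in opposite directions between the genotypes without a call, at log2 fold changes of 0.44 and -0.21. All 15 transporters together held 4 genes without overlap on the higher side (26.7%, against 11.4% of all genes) and 5 on the lower side (33.3%, against 10.5%). When 1 library was left out, *Slc1a4* was called in 2 of the 6 fits, without WT replicate 3 and without mutant replicate 3, and *Slc38a3* in 1, without mutant replicate 2. Their highest edgeR adjusted p, 0.290 and 0.282, came without mutant replicate 1.

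In the other 7 companion lists edgeR's quasi-likelihood test called 0 genes, and 2 of their 52 genes, *Trnt1* and *Ppp1r15a*, had an unadjusted p under 0.05. *Trnt1*, which adds the CCA end that every tRNA needs for charging, was 46.4 to 47.3 CPM in WT hearts against 51.2 to 54.2 CPM in mutants (log2 fold change 0.18, edgeR adjusted p = 0.199), and it led the 16 tRNA maturation genes by p. *Gatb* and *Mtfmt*, which complete the charging of the glutamine and the initiator methionine tRNAs in mitochondria, had log2 fold changes of 0.09 and -0.09. The 7 cytosolic elongation factor genes had a median log2 fold change of -0.06 and the 8 mitochondrial translation factor genes of 0.01. Of these, *Eef1a1* and *Eef1g* on the cytosolic side lay at -0.09 and 0.09, and *Gfm2* and *Tsfm* on the mitochondrial side at -0.11 and 0.08. *Ppp1r15a*, which ends the integrated stress response as a phosphatase subunit, was 3.28 to 3.65 CPM in WT hearts against 4.44 to 4.87 CPM in mutants (edgeR adjusted p = 0.197). Of the 7 synthetase-like and proofreading genes, 6 had a negative log2 fold change, and the 2 with the smallest p were *Pstk* at -0.16 and *Prorsd1* at -0.21.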

How the data were processed

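Poly-A RNA of 6 hearts was sequenced by the authors as paired-end reads on a NovaSeq6000, mapped to GRCm38/mm10 with OLego and quantified per gene with Quantas (versions not given in the sources used here). The labels name a directional kit and the methods a TruSeq protocol. The authors deposited per gene an RPKM and the tags behind it as an estimated count. In a library 8.45% to 13.8% of these counts were not whole, and they were rounded. Tested genes reached 1 CPM in 3 or more of the libraries, in a fit by edgeR 4.0.16 (R 4.3.3; TMM, quasi-likelihood test, two-sided, genotype as the only term). Alternatives were DESeq2 1.42.0, limma 3.58.1 on log2(CPM + 0.5), other scaling, filters and thresholds, left-out libraries and a replicate block. The code was tested on simulated data. RPKM deposited by the authors served for levels between genes and for the overlap of *Qars*. It also replaced CPM in an alternative for the pair ratios, where 5 pairs parted, all with the mutants higher.

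All 36 genes are named. Values in every library are given for called genes and, in each compartment, the 5 uncalled genes with the smallest p, and called companion genes are named with theirs. Other companion genes named were the 2 with the smallest p in lists without a call, or were picked for their known roles. The genes and lists were chosen with earlier results of these data known, and the promoter motif, the neighbouring genes and the shares without overlap after their values were seen. Gene spans come from RefSeq, as do promoters and the starts of *Sars2* and *Mrps12* (GRCm38.p6). Strands, overlaps and distances to neighbouring starts come from GENCODE M21 (GRCm38). 27 of the 36 genes had a promoter entry. Symbols in older form were matched by Entrez ID for 5 list genes. Replicates are separate mice. Results for a few items are not reported here.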

Additional observations from a re-analysis of the deposited data

How the results depend on the processing

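Directions of the called genes *Lars*, *Iars* and *Sars2* held in all alternatives run, and other scaling, no filter and limma-trend left all 3 calls in place. DESeq2 and a mean CPM of at least 5 added *Eprs*. Over all genes DESeq2 called 1028, an adjusted p under 0.05 called 304, a p under 0.001 called 280 and the replicate block 966, against 601. Of the 36 synthetases, 1 (*Lars*) was called at an adjusted p under 0.05 and 1 at a p under 0.001, with 1 cytosolic and 0 mitochondrial genes at both. Of the companion genes, 3, 2 and 1 were called at a mean CPM of at least 5, an adjusted p under 0.05 and a p under 0.001, against 5. DESeq2 called 7 companion genes and the replicate block 6. With 1 library left out, edgeR's quasi-likelihood test called 141 to 489 genes in all, 0 to 2 synthetases (0 to 1 cytosolic, 0 to 1 mitochondrial) and 0 to 4 companion genes, the median log2 fold change was 0.085 to 0.16 (cytosolic, lowest without mutant replicate 2) and -0.091 to -0.0059 (mitochondrial), and 5 to 10 pairs parted. The lowest counts came without mutant replicate 1, where 8 synthetases and 13 companion genes had an unadjusted p under 0.05. The pairs that parted were 9 without WT replicate 3 and 10 without mutant replicate 3. Leaving out mutant replicate 2 gave 6 such pairs, 1 of them with the mutants lower. Leaving out both libraries higher in atrial markers was chosen after seeing the data and left fewer samples. It gave 227 genes, 0 synthetases (0 cytosolic, 0 mitochondrial) and 4 companion genes, all higher. Of the synthetases, 5 had an unadjusted p under 0.05 by edgeR in that fit.

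Numbers 1 and 3 are shared between genotypes, but nothing says that they pair the mice, and libraries of the same number correlated at 0.0072 and -0.049 in their deviations from the group means. With the replicate block 1 cytosolic gene (*Lars*) was called and *Iars* was not, and the medians were 0.10 (cytosolic) and 0.019 (mitochondrial). Signs turned under the block for *Cars* (-0.027), *Farsb* (-0.025), *Kars* (0.0050), *Wars2* (0.048) and *Yars2* (0.040), none of them called. When 1 library was left out, the log2 fold change ran from -0.015 to 0.050 for *Farsb*, -0.063 to 0.034 for *Kars*, -0.056 to 0.049 for *Vars* (0.0036 without both libraries), -0.011 to 0.045 for *Wars*, -0.078 to 0.035 for *Cars2* and -0.092 to 0.022 for *Yars2*. The cause of these changes was not tested.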

Other observations

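Besides *Sars2* and the pair *Hars* and *Hars2*, 5 synthetase genes start close to a neighbour read in the opposite direction in GENCODE M21. *Rars2* and *Orc3*, an origin recognition subunit, start 13 bases apart, and *Orc3* was 53.5 to 64.4 CPM in WT hearts against 62.5 to 69.5 CPM in mutants. *Yars* and *S100pbp* start 33 bases apart, and *S100pbp* was 2.14 to 3.62 CPM in WT hearts against 2.07 to 3.67 CPM in mutants, with overlap, whereas *Yars* had none. *Kars* and *Terf2ip*, which encodes the telomere protein RAP1, start 75 bases apart, and *Terf2ip* was 9.13 to 10.6 CPM in WT hearts against 9.60 to 10.3 CPM in mutants. *Ubfd1* beside *Ears2* and *Lyrm4* beside *Fars2* had log2 fold changes of 0.06 and 0.04. None of these 5 neighbours was called by edgeR's quasi-likelihood test, and 0 of them had an unadjusted p under 0.05.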
